A study of Mus musculus with 8 samples.

Results

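The activating transcription factor ATF4 and the unfolded protein response (UPR) were followed through 45 listed genes in activated mouse splenic CD4+CD25- T cells. The list was put together by gene function, with earlier results of these data known. Its largest branch, called regulators below, holds 14 transcription factors, stress regulators and stress-induced genes around ATF4 and its partner CHOP. It includes the receptor gene Vldlr and the enzyme gene Chac1, which are not regulators. The enzyme branch holds 13 amino acid and one-carbon enzymes. The others hold 11 genes of cytosolic tRNA charging and tRNA export, and 7 endoplasmic reticulum (ER) chaperones and sensors. Of the 45, 42 were measured, and all 42 were among the 13508 genes tested. Pycr1, Aars and Pdia4 had no transcript cluster with a single gene symbol and were not used here, and Mars carried the symbol Mars1.

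The cells were sorted by surface CD45RB, a form of the phosphatase CD45; naive T cells carry much of it and T cells that have met antigen carry less. They came from C57BL/6 mice aged 6 to 8 weeks, either wild type or CCR2-/-, which lack the receptor for the chemokine CCL2. All cells were stimulated on plates coated with anti-CD3 and anti-CD28, for 48 h by the protocols of the samples but for 2 h by the design text, and the duration is therefore not settled. Each of the 4 groups (wild-type CD45RBhigh, wild-type CD45RBlow, CCR2-/- CD45RBhigh and CCR2-/- CD45RBlow) had 2 single-colour arrays, numbered 1 and 2, with no unstimulated cells. Whether replicates are separate animals is not stated, so a p-value measures only the spread between these samples. Xist read 4.45 to 5.02 on the 4 arrays numbered 1 and 11.74 to 12.07 on the 4 numbered 2, so the replicates were not repeat arrays of 1 RNA.

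As background, ATF4 is translated when the initiation factor eIF2 is phosphorylated, by GCN2 when amino acids run short, by PERK when unfolded proteins collect in the ER, or by other kinases. With C/EBP partners it turns on genes that make or import amino acids and charge tRNAs, and under lasting stress it raises CHOP, the product of Ddit3. The IRE1-XBP1 and ATF6 arms of the UPR act alongside PERK and mainly raise ER chaperones and folding enzymes. In T cells, ATF4 is known for supporting amino acid supply and one-carbon metabolism after activation.

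Values below are log2 intensities as deposited, and a difference of 1 unit is a 2-fold change. Ccr2, the targeted gene, read 4.26 to 4.61 in wild type and 4.62 to 5.15 in CCR2-/- arrays, near the array's 40th percentile of 4.53 to 4.63. Its readings were not lower in CCR2-/- arrays, so this gene did not check the genotype labels, which are taken as given. The 6 CD4 T cell markers averaged 11.08 to 11.32 on every array. Of 7 listed B cell markers, the 6 measured averaged 5.44 to 6.38 on CD45RBhigh arrays and 5.15 to 5.26 on CD45RBlow arrays, and the 2 CD8 T cell markers 6.16 to 6.84 and 5.80 to 5.93. The 5 plasma cell markers averaged 4.47 to 4.74 and 4.73 to 4.92, and the 6 macrophage and monocyte markers 4.05 to 4.18 on all arrays, with 0 of those 6 past the filter on low values. Among the B cell markers, 1 of 5 tested fell in CD45RBlow against CD45RBhigh cells, beside 1.93% of all tested genes. It was Ighm, which read 9.64 to 11.0 and fell by 1.03 (adjusted p = 0.0128, limma). Cd79a, Cd79b, Ms4a1 and Cd22 differed by -0.90, -0.81, -0.46 and -0.21 and did not pass (adjusted p from 0.206 to 0.744, limma). Pax5 stayed at 3.95 to 4.44. Among the plasma cell markers Prdm1, also a T cell gene, rose by 1.67 (adjusted p = 0.00586, limma), Mzb1 differed by -0.75 (adjusted p = 0.355), and Jchain stayed at 3.94 to 4.17. The CD8 T cell marker Cd8b1 read 6.97 to 8.78, differed by -0.92 and passed only with the replicate number as a block (limma's adjusted p 0.0776 without and 0.0466 with it). The other CD8 marker, Cd8a, read 4.39 to 4.91, near the array's 40th percentile. It differed by -0.18 and passed in neither fit (limma's adjusted p 0.463 and 0.274). Foxp3, the regulatory T cell factor, read 5.31 to 5.88 in CD45RBhigh and 7.87 to 9.14 in CD45RBlow arrays. The part of these other cell types in the subset results was not tested, and in bulk RNA fewer cells of a type and less RNA per cell cannot be told apart.

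Promoter sequences are shown for 7 members as examples. They hold the letters to which ATF4 with a C/EBP partner, or the UPR factors ATF6 and XBP1, are known to bind. Other members with a match, such as Atf3, Gars and Tars, are not shown. Each run is the 250 bases before the annotated start (RefSeq, GRCm38.p6), 5′ to 3′ on the gene's strand, with motif matches in capitals. Vldlr has 2 annotated starts in the table; the window shown holds the match and the window of the other start has none. The positions are Chac1 chr2:119350992-119351241 (+), Nupr1 chr7:126625471-126625720 (−), Vldlr chr19:27216770-27217019 (+), Asns chr6:7693210-7693459 (−), Pck2 chr14:55540016-55540265 (+), Herpud1 chr8:94386179-94386428 (+) and Hspa5 chr2:34771840-34772089 (+).
Chac1: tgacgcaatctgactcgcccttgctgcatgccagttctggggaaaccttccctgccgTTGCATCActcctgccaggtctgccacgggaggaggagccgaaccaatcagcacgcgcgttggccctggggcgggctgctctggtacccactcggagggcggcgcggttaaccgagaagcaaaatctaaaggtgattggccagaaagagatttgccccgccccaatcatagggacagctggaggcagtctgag
Nupr1: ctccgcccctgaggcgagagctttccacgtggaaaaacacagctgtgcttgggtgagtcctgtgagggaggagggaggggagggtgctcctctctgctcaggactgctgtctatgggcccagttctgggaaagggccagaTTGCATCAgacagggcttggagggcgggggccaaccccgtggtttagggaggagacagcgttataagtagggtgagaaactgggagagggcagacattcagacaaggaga
Vldlr: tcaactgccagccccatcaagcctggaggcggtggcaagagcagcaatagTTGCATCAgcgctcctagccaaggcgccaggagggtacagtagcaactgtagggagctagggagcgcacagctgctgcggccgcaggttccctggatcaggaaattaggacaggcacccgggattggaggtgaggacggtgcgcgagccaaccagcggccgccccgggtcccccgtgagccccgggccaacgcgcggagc
Asns: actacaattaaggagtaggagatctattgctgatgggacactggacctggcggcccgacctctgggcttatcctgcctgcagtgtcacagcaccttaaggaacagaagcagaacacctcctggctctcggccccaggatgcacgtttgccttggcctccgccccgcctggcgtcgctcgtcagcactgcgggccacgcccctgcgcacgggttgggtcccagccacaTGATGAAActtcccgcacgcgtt
Pck2: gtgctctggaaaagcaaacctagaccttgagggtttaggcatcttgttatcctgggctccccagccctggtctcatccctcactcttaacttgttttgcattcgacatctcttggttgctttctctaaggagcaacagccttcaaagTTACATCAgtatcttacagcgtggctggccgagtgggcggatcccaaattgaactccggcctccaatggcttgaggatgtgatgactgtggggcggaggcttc
Herpud1: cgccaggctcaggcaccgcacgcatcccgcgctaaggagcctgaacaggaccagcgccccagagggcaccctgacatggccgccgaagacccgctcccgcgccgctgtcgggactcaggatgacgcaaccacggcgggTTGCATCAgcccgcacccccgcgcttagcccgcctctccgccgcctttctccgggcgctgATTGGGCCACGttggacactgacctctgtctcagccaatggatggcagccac
Hspa5: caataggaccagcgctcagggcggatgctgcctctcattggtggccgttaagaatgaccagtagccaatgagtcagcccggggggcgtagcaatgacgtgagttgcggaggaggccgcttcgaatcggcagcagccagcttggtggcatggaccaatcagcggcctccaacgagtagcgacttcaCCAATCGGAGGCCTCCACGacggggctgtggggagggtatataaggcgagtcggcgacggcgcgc

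The C/EBP-ATF element TGATGNAA, searched on both strands of windows from 250 bases before to 50 bases after the start, was held by 14 of the 40 members with a window. As windows, 14 of 43 member windows had it (32.6%), against 1304 of 32851 windows in the whole table (3.97%). It was found in 5 of 14 regulators, 3 of 11 enzymes, 5 of 9 tRNA genes and 1 of 6 ER genes. In Chac1 and Nupr1 the matches began 193 and 110 bases before the start, and in Asns 23 bases before it. The ER stress element (CCAAT, 9 bases, CCACG) stood in 39 of all windows (0.119%) and in 1 member, Hspa5, which encodes the chaperone BiP. The related ER stress element II (ATTGG, 1 base, CCACG), added after the sequences were seen, stood in 12 windows (0.0365%) and in 1 member, Herpud1, beside a C/EBP-ATF match. Aldh1l2, Cth, Wars, Nars and Atf6 had no window in the table used. The list was put together around ATF4, so its higher share of C/EBP-ATF matches is not a finding independent of that choice. These matches describe letters and do not show binding.

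The first comparison set CD45RBlow against CD45RBhigh cells. Averaged over both genotypes, 13 of the 42 measured members fell in CD45RBlow cells and 0 rose, against 1.93% of all tested genes that fell. The 13 included Ddit3, Nupr1, Vldlr and Niban1 of the regulator branch. The rest were the enzymes Asns, Pck2, Gpt2, Aldh1l2, Mthfd2, Aldh18a1 and Cth, the synthetase gene Sars, and Herpud1 of ER-associated degradation. Of the transcription factors Atf4, Atf5, Atf3, Ddit3, Cebpb and Cebpg, only Ddit3 passed in this fit. The median difference was -0.45 over the 42 members and -0.01 over all tested genes. The list was chosen with earlier results of these data known. Its distance from all tested genes, here and below, is therefore not a finding independent of that choice. By branch the median was -0.75 for enzymes, -0.53 for regulators, -0.27 for tRNA genes and -0.13 for ER genes. The calls rest on limma over all 8 arrays without the replicate number as a block. Benjamini-Hochberg adjustment ran over all 13508 genes, and the threshold was an adjusted p of 0.05.

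With the replicate number as a block, 22 of 42 members fell, against a background of 3.66%, with 8 of 14 regulators, 9 of 12 enzymes, 4 of 10 tRNA genes and 1 of 6 ER genes. The count without the block was 1 without wild-type CD45RBlow replicate 1, 3 without wild-type CD45RBlow replicate 2, 4 without wild-type CD45RBhigh replicate 1 or without CCR2-/- CD45RBlow replicate 1, and 5 without wild-type CD45RBhigh replicate 2. Over all 13508 genes, in either direction, these fits called 39, 112, 136, 69 and 122 genes in that order, against 409 with all arrays. In 24 members all 4 CD45RBlow arrays lay below all 4 CD45RBhigh arrays, which held for 8.13% of all tested genes. These were 11 of 12 enzymes, 7 of 14 regulators, 4 of 10 tRNA genes and 2 of 6 ER genes. In 34 members the CD45RBlow array was lower in each of the 4 pairs of genotype and replicate number, against 18.7% of tested genes.

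**Figure D1:**
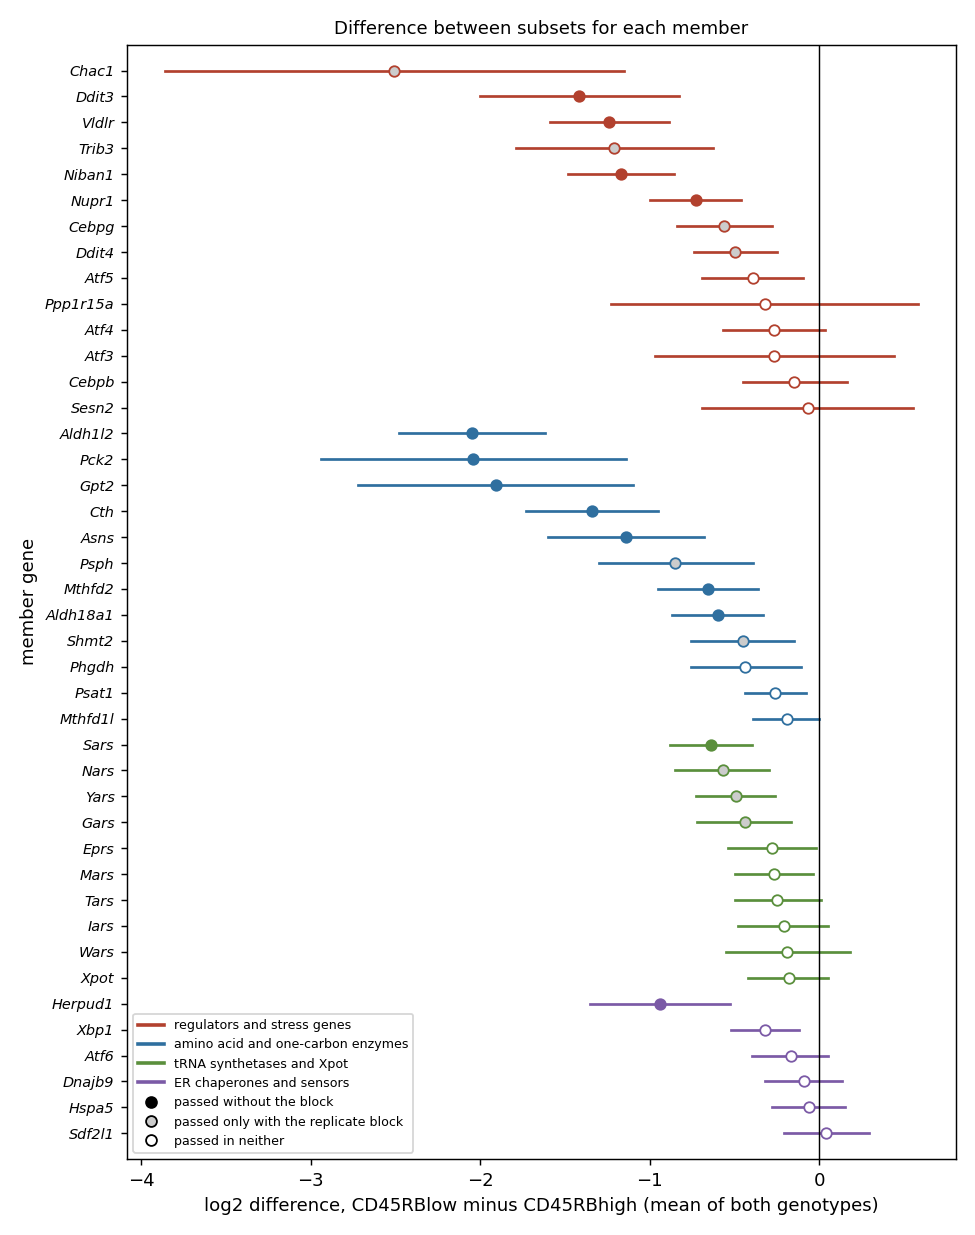
Log2 difference (x axis) between CD45RBlow and CD45RBhigh cells, averaged over genotypes, for the 42 measured members (y axis), coloured by branch; points are limma estimates, bars their 95% confidence intervals, and the fill shows whether a member passed without the replicate block, only with it, or in neither. The enzymes and regulators reach furthest to the left, down to -2.51 for Chac1, while Hspa5 at -0.06 and Sdf2l1 at 0.04 lie near 0.

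Below, 4 values in a row are wild type replicates 1 and 2, then CCR2-/- replicates 1 and 2. Atf4 itself, whose output is set largely by translation, read 9.47, 9.65, 9.38 and 9.82 on the CD45RBhigh arrays and 9.19, 9.37, 9.18 and 9.48 on the CD45RBlow arrays. These values overlapped, and the difference of -0.27 (95% confidence interval -0.57 to 0.03) did not pass, with limma's adjusted p = 0.326. Atf5, a factor of the same family, read 6.14, 6.39, 6.34 and 6.73 on the CD45RBhigh arrays and 6.00, 5.91, 5.89 and 6.22 on the CD45RBlow arrays. Its difference was -0.39 (adjusted p = 0.153, limma), and it was lower in all 4 pairs although the groups overlapped.

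Ddit3, which encodes the stress factor CHOP, read 7.85, 8.47, 7.84 and 8.53 on the CD45RBhigh arrays and 6.42, 6.90, 6.47 and 7.26 on the CD45RBlow arrays. All CD45RBlow arrays lay below all CD45RBhigh arrays, and Ddit3 fell by 1.42 (-2.00 to -0.83), or 2.67-fold, with limma's adjusted p = 0.0338. Trib3, a pseudokinase that restrains ATF4 and CHOP, stood at 6.86, 7.74, 7.20 and 7.98 on the CD45RBhigh arrays and 6.08, 6.27, 6.04 and 6.54 on the CD45RBlow arrays. Here too the groups did not overlap, and the difference of -1.21 had an adjusted p of 0.0507 without and 0.00443 with the replicate block (limma). Chac1, an enzyme that degrades glutathione and a CHOP pathway target, read 8.36, 8.67, 8.21 and 8.86 on the CD45RBhigh arrays and 4.62, 6.60, 5.27 and 7.58 on the CD45RBlow arrays. It had the most negative estimate of the list at -2.51 (-3.86 to -1.15), but its CD45RBlow arrays spanned 2.96 units. Chac1 passed with the block (adjusted p = 0.0107), not without it (0.0691, limma). Its lowest reading, 4.62 on wild-type CD45RBlow replicate 1, lay near the arrays' 40th percentile of 4.53 to 4.63. The size of its difference therefore rests in part on a low signal.

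Vldlr, a lipoprotein receptor, read 6.38, 6.35, 6.39 and 6.50 on the CD45RBhigh arrays and 4.91, 5.28, 4.93 and 5.54 on the CD45RBlow arrays. The CD45RBhigh arrays lay within 0.15 units of each other, and Vldlr fell by 1.24 (-1.59 to -0.89), with limma's adjusted p = 0.0111. Its lowest reading, 4.91, lay near the arrays' medians of 4.92 to 5.05, so this size may rest in part on a low signal. Niban1, a stress-induced cytoplasmic protein, was at 8.52, 9.02, 8.96 and 9.07 on the CD45RBhigh arrays and 7.91, 7.75, 7.77 and 7.47 on the CD45RBlow arrays. It fell by 1.17 (-1.48 to -0.86; adjusted p = 0.00963, limma), and its 2 groups lay apart. Nupr1, a small nuclear stress protein, was at 6.26, 6.13, 6.23 and 6.69 on the CD45RBhigh arrays and 5.62, 5.72, 5.48 and 5.60 on the CD45RBlow arrays. It fell by 0.73 (-1.0 to -0.46), less than the other regulators that passed, and also separated the arrays (adjusted p = 0.0263, limma).

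Cebpg, a C/EBP partner of ATF4, read 8.97, 8.93, 8.97 and 9.15 on the CD45RBhigh arrays and 8.21, 8.35, 8.37 and 8.86 on the CD45RBlow arrays. Ddit4, an inhibitor of the growth kinase complex mTORC1, read 9.59, 9.17, 9.39 and 9.41 on the CD45RBhigh arrays and 8.65, 8.69, 9.05 and 9.17 on the CD45RBlow arrays. Both passed only with the block, Cebpg at -0.56 (limma's adjusted p 0.0582 without and 0.0269 with it) and Ddit4 at -0.50 (0.0548 and 0.0442). Cebpg separated the subsets on all arrays, while Ddit4 met at 9.17 in both. Cebpb, another partner, read 4.95, 5.22, 5.03 and 5.31 on the CD45RBhigh arrays and 4.78, 5.00, 4.87 and 5.28 on the CD45RBlow arrays. Its difference of -0.15 did not pass (adjusted p = 0.626, limma).

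Atf3, an immediate response factor, read 10.15, 10.63, 9.42 and 10.85 on the CD45RBhigh arrays and 9.88, 10.04, 9.80 and 10.25 on the CD45RBlow arrays. The groups overlapped, the difference was -0.27 (-0.97 to 0.44) and limma's adjusted p was 0.729. Sesn2, a leucine sensor that restrains mTORC1, and Ppp1r15a, the phosphatase subunit that reverses eIF2 phosphorylation, are singled out after their values were seen. In Sesn2 the CD45RBlow minus CD45RBhigh differences were 0.30, -0.32, 0.69 and -0.95. In Ppp1r15a they were 0.10, -0.77, 0.67 and -1.28. Both were higher in CD45RBlow cells in the 2 pairs numbered 1 and lower in the 2 pairs numbered 2, so their averaged differences of -0.07 and -0.32 described neither number.

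**Figure D2:**
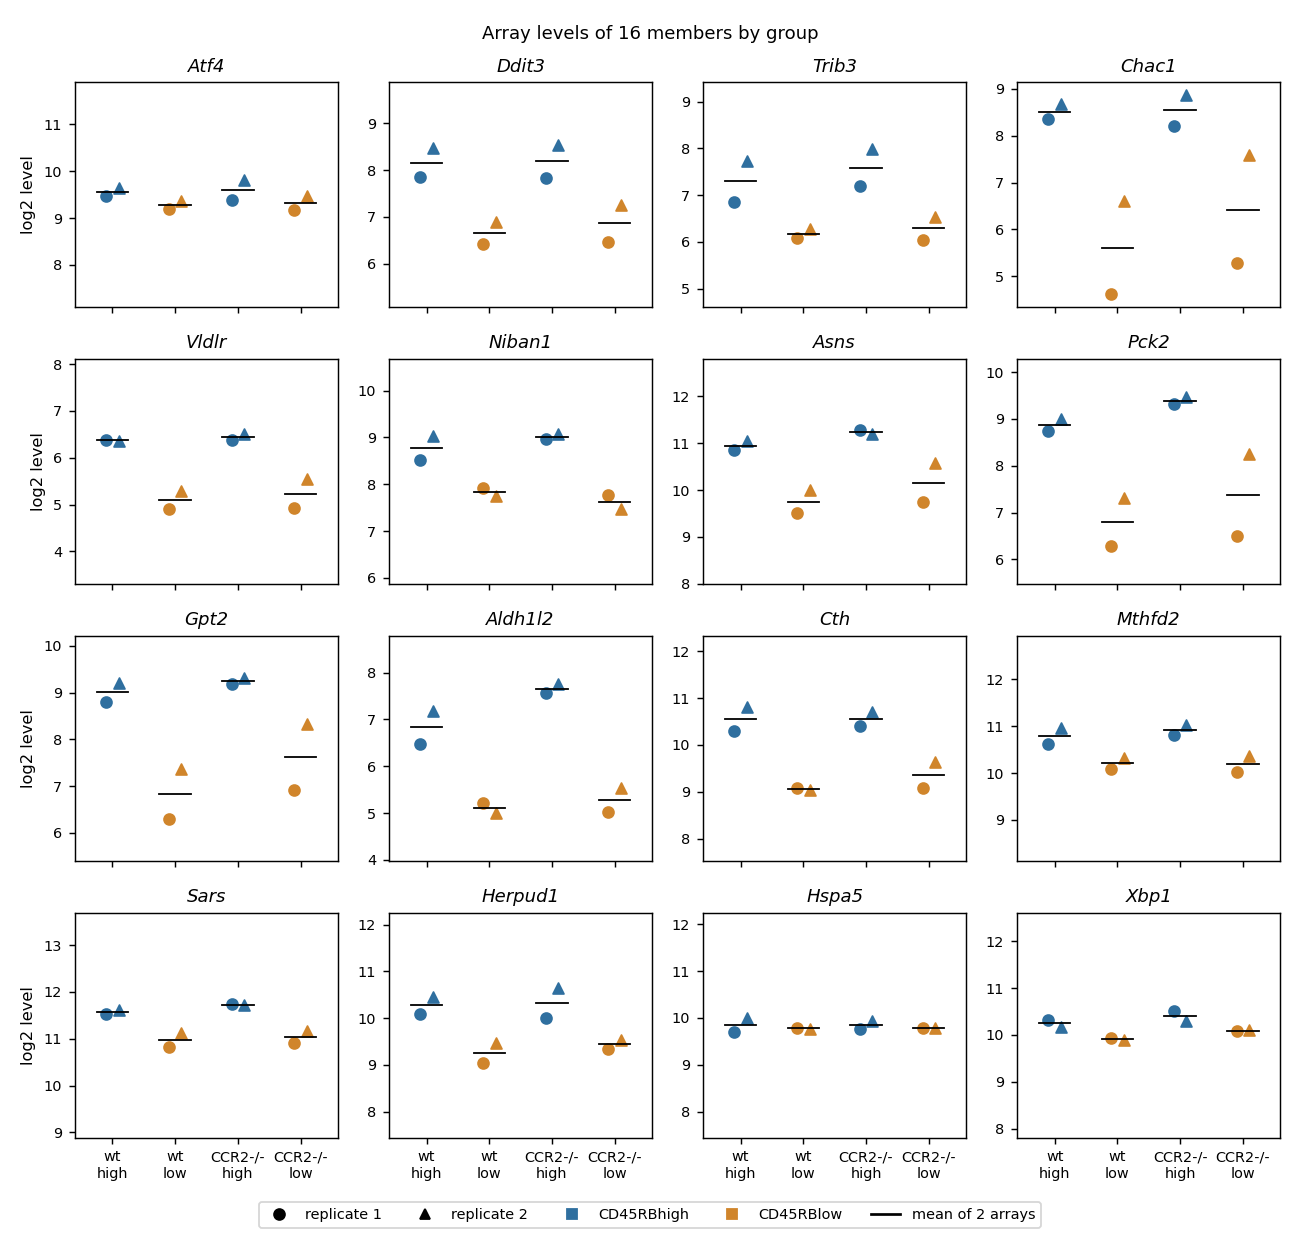
Level of 16 members on each array (y axis, log2 intensity; every panel spans 4.8 units) in the 4 groups (x axis), with circles for replicate 1, triangles for replicate 2 and a line at their mean. Ddit3, Aldh1l2, Pck2 and Asns separate the subsets on all arrays, whereas Atf4 and Hspa5 overlap.

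The amino acid and one-carbon enzymes were the branch with the most calls, 7 of 12 without and 9 of 12 with the block, and all 12 were lower in CD45RBlow cells in all 4 pairs. Aldh1l2, the mitochondrial enzyme that oxidises 10-formyl-tetrahydrofolate, read 6.47, 7.19, 7.57 and 7.75 on the CD45RBhigh arrays and 5.21, 5.01, 5.02 and 5.54 on the CD45RBlow arrays. It fell by 2.05 (-2.48 to -1.62), or 4.15-fold, and its adjusted p of 0.00449 (limma) was the smallest of the list. Its lowest reading, 5.01, lay near the arrays' medians of 4.92 to 5.05 over all transcript clusters. The size of its difference may therefore rest in part on a low signal. Aldh1l2 also passed with each array left out in turn. Cth, cystathionine gamma-lyase of cysteine synthesis, read 10.29, 10.81, 10.40 and 10.70 on the CD45RBhigh arrays and 9.09, 9.04, 9.08 and 9.63 on the CD45RBlow arrays. It fell by 1.34 (-1.73 to -0.95), or 2.53-fold (adjusted p = 0.0125, limma), with the arrays apart.

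Pck2, mitochondrial phosphoenolpyruvate carboxykinase, read 8.75, 8.99, 9.31 and 9.46 on the CD45RBhigh arrays and 6.29, 7.30, 6.50 and 8.26 on the CD45RBlow arrays. Gpt2, mitochondrial alanine transaminase, read 8.80, 9.21, 9.18 and 9.32 on the CD45RBhigh arrays and 6.29, 7.37, 6.91 and 8.33 on the CD45RBlow arrays. In both genes the CD45RBhigh arrays stayed within 0.71 units, while the CD45RBlow arrays spanned 1.97 units in Pck2 and 2.04 units in Gpt2, the arrays numbered 2 being higher in each genotype. Pck2 fell by 2.04 (-2.94 to -1.14; 4.12-fold; limma's adjusted p = 0.0392). Gpt2 fell by 1.91 (-2.72 to -1.10; 3.75-fold; limma's adjusted p = 0.0367). Asns, which makes asparagine and is the classic target of the amino acid response, read 10.85, 11.04, 11.28 and 11.20 on the CD45RBhigh arrays and 9.51, 10.00, 9.74 and 10.58 on the CD45RBlow arrays. It fell by 1.14 (-1.60 to -0.68), or 2.2-fold (adjusted p = 0.0313, limma), again without overlap.

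Of the mitochondrial folate enzymes, Mthfd2 read 10.63, 10.97, 10.81 and 11.02 on the CD45RBhigh arrays and 10.08, 10.33, 10.03 and 10.37 on the CD45RBlow arrays. It fell by 0.66 (-0.95 to -0.36; adjusted p = 0.0436, limma). Shmt2, which moves a carbon from serine to folate, read 11.91, 12.13, 11.94 and 12.30 on the CD45RBhigh arrays and 11.42, 11.64, 11.53 and 11.88 on the CD45RBlow arrays. It was separated too, at -0.45, but passed only with the block (limma's adjusted p 0.119 and 0.0197). Mthfd1l, which releases formate, had a difference of -0.19 and overlapping arrays (adjusted p = 0.269, limma).

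Psph, the last step of serine synthesis, read 8.18, 8.47, 8.13 and 8.60 on the CD45RBhigh arrays and 7.11, 7.58, 7.32 and 7.98 on the CD45RBlow arrays. Its difference of -0.85 passed only with the block (limma's adjusted p 0.0663 and 0.00416). Phgdh and Psat1, the steps before it, differed by -0.44 and -0.26, with arrays apart but with adjusted p-values of 0.147 and 0.125 without and 0.0812 and 0.0995 with the block (limma). Aldh18a1, which opens proline synthesis, read 10.61, 10.86, 10.83 and 10.90 on the CD45RBhigh arrays and 9.96, 10.36, 10.17 and 10.33 on the CD45RBlow arrays. It fell by 0.60 (-0.87 to -0.33; adjusted p = 0.0413, limma). Mthfd2 and Aldh18a1 each passed in 0 of the 8 fits that left out 1 array.

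The 10 measured tRNA genes had a median difference of -0.27, and 9 of them were lower in CD45RBlow cells in all 4 pairs. Sars, which charges serine, read 11.52, 11.61, 11.74 and 11.71 on the CD45RBhigh arrays and 10.83, 11.12, 10.90 and 11.16 on the CD45RBlow arrays. It fell by 0.64 (-0.88 to -0.40), with limma's adjusted p = 0.0266, and was the only one of them to pass without the block. Nars, for asparagine, read 11.71, 11.93, 11.82 and 12.00 on the CD45RBhigh arrays and 11.08, 11.38, 11.20 and 11.51 on the CD45RBlow arrays. Yars, for tyrosine, read 10.84, 10.99, 10.99 and 11.16 on the CD45RBhigh arrays and 10.34, 10.59, 10.43 and 10.65 on the CD45RBlow arrays. Gars, for glycine, read 11.44, 11.64, 11.53 and 11.61 on the CD45RBhigh arrays and 10.89, 11.20, 11.00 and 11.35 on the CD45RBlow arrays. These 3 synthetases separated the subsets and passed only with the block, at -0.57, -0.49 and -0.44, with adjusted p-values of 0.0507, 0.0507 and 0.0969 without it and 0.00849, 0.013 and 0.026 with it (limma). The other 6 members of the branch, Eprs, Mars, Tars, Iars, Wars and the tRNA exporter Xpot, had differences from -0.28 to -0.18, overlapping arrays and no call in either fit.

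Among the ER genes only Herpud1 passed. Herpud1, a membrane protein of ER-associated degradation, read 10.09, 10.45, 10.00 and 10.64 on the CD45RBhigh arrays and 9.05, 9.47, 9.34 and 9.54 on the CD45RBlow arrays. It fell by 0.94 (-1.35 to -0.53), or 1.92-fold, with limma's adjusted p = 0.0383, and the arrays did not overlap. Hspa5, the chaperone BiP and the usual readout of the UPR, read 9.69, 9.99, 9.76 and 9.94 on the CD45RBhigh arrays and 9.79, 9.77, 9.78 and 9.78 on the CD45RBlow arrays. The CD45RBlow arrays lay inside the CD45RBhigh range, and the difference was -0.06 with an interval of -0.28 to 0.15 (adjusted p = 0.798, limma).

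Xbp1, the factor spliced by IRE1, read 10.33, 10.17, 10.51 and 10.29 on the CD45RBhigh arrays and 9.93, 9.90, 10.08 and 10.11 on the CD45RBlow arrays. Its arrays lay apart by a small gap, at -0.32 (-0.52 to -0.12; limma's adjusted p 0.099 without and 0.0687 with the block); the array signal does not separate spliced from unspliced Xbp1. Atf6, the membrane-bound UPR factor, read 9.91, 10.10, 9.71 and 9.99 on the CD45RBhigh arrays and 9.68, 9.80, 9.75 and 9.79 on the CD45RBlow arrays. It differed by -0.17 (-0.40 to 0.05; adjusted p = 0.408, limma). Dnajb9, a BiP co-chaperone, and Sdf2l1, an ER folding factor, differed by -0.09 and 0.04, with intervals of -0.32 to 0.13 and -0.21 to 0.29. Whether the branches differ from one another was described by these medians and counts and was not tested.

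**Figure D3:**
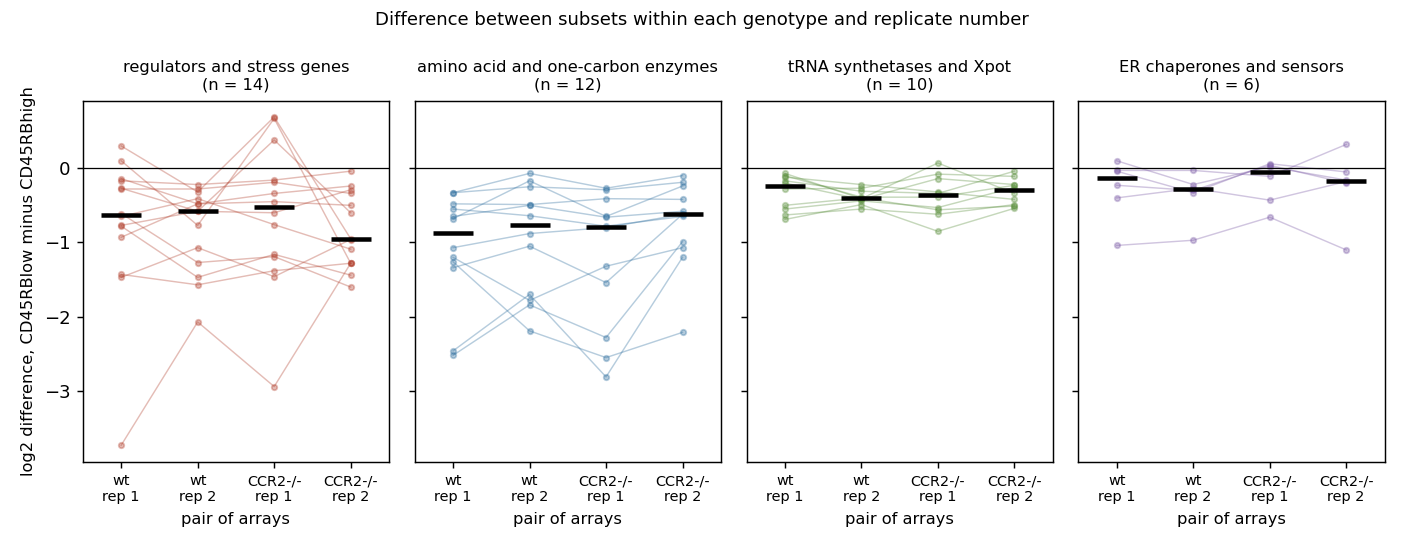
Difference between CD45RBlow and CD45RBhigh arrays (y axis, log2 units) within each genotype and replicate number (x axis), in one panel a branch; each point is a member, thin lines join the same member, and black bars are branch medians. All 12 enzymes lie below 0 in every pair, with medians from -0.88 to -0.62, and the ER genes have medians from -0.28 to -0.04.

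Within a genotype the precision of 2 arrays a group was lower. In wild-type cells 0 of 42 members passed, against 0.0444% of tested genes that fell, and 24 members had an unadjusted p under 0.05, as did 1245 of all 13508 genes (limma; 12 genes passed in all). With the block 7 members fell in wild type, Ddit3, Vldlr, Gpt2, Aldh1l2, Psph, Cth and Herpud1, against 0.489%. In CCR2-/- cells 2 members fell, Aldh1l2, which fell by 2.38 (adjusted p = 0.0229, limma), and Niban1, which fell by 1.4 (adjusted p = 0.0409), against 0.192% of genes. Neither passed without either CCR2-/- CD45RBlow array or without either wild-type CD45RBlow array, and the count was 1 without either CCR2-/- CD45RBhigh array. With the block 10 members fell there, against 0.925%: Ddit3, Trib3, Nupr1, Vldlr, Niban1, Aldh1l2, Mthfd2, Psph, Cth and Herpud1. The branch medians in wild type and CCR2-/- cells were -0.79 and -0.72 for enzymes, -0.60 and -0.46 for regulators, -0.29 and -0.34 for tRNA genes and -0.23 and -0.08 for ER genes. Differing counts in the 2 genotypes do not show a differing effect: the interaction passed for 0 of 13508 genes (0%), with 160 genes and 0 members at an unadjusted p under 0.05 (limma), and for 0 genes with the block.

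The genotype comparison asked whether loss of CCR2 altered these genes. Averaged over subsets, 0 of 42 members and 0 of all 13508 tested genes (0%) passed in limma, with 1 member and 521 genes at an unadjusted p under 0.05. The same count of 0 held in CD45RBhigh cells (1 member and 354 genes under 0.05) and in CD45RBlow cells (1 member and 298 genes). The replicate block, array weights and an intensity trend also gave 0 genes. With the block, 3 members and 967 genes had an unadjusted p under 0.05 averaged over subsets (limma). In CD45RBlow cells the block gave 4 members and 587 genes, and in CD45RBhigh cells 1 member and 573 genes. Of the member estimates averaged over subsets, 37 of 42 were above 0, with a median of 0.11. Over all tested genes it was 7720 of 13508, with a median of 0.02. In addition, 12 members were higher in CCR2-/- in all 4 pairs, against 12.6% of tested genes. Those 12 were 6 enzymes, 3 tRNA genes, 2 regulators and 1 ER gene.

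In single genes, Aldh1l2 was 0.83 higher in CCR2-/- than in wild-type CD45RBhigh cells (95% confidence interval 0.21 to 1.44), with pair differences of 1.10 and 0.56, but its adjusted p was 1.0 (limma). Ddit4 was 0.44 higher in CCR2-/- than in wild-type CD45RBlow cells (0.09 to 0.79), with pair differences of 0.40 and 0.48 and an adjusted p of 1.0 (limma). Averaged over subsets, Pck2 differed by 0.55, Gpt2 by 0.52 and Asns by 0.35, each higher in CCR2-/- in all 4 pairs and none past the threshold. Atf4 differed by 0.04 in CD45RBhigh and 0.05 in CD45RBlow cells, with intervals of -0.39 to 0.46 and -0.37 to 0.48. Intervals of this width leave room for modest differences between genotypes that 2 arrays a group could not show.

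**Figure D4:**
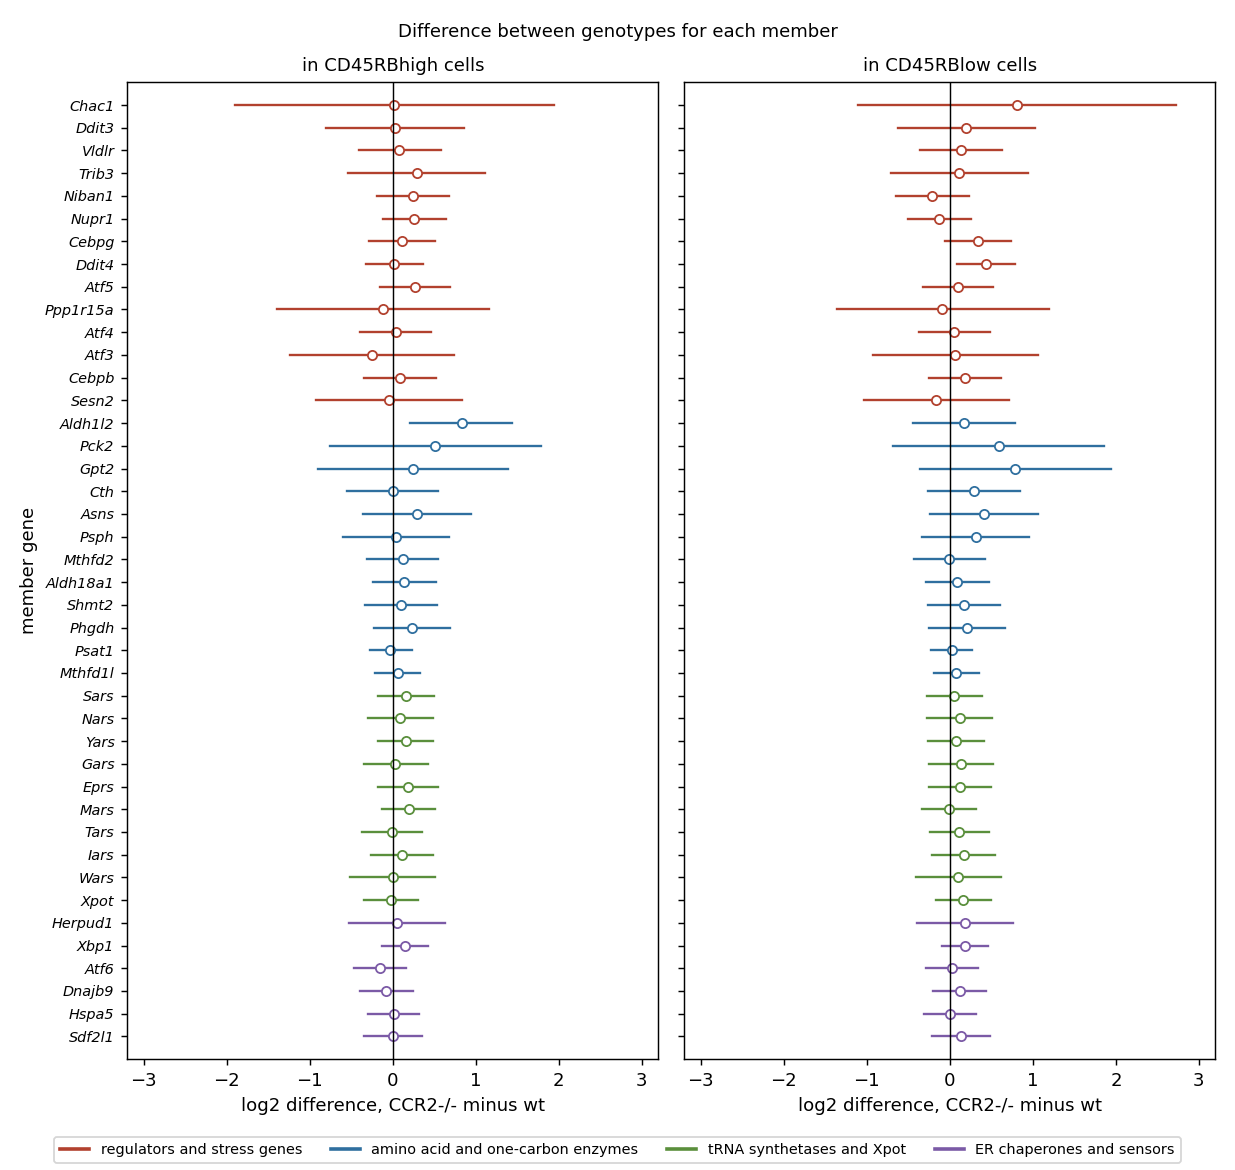
Log2 difference between CCR2-/- and wild type (x axis) for the 42 measured members (y axis) in CD45RBhigh cells (left) and CD45RBlow cells (right); points are limma estimates, bars their 95% confidence intervals and colours the branches. The intervals of Aldh1l2 on the left (0.21 to 1.44) and Ddit4 on the right (0.09 to 0.79) lie above 0, the other intervals span 0, and 0 members passed after adjustment.

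The rest of the pathway was read from 6 further lists, beside 1.93% of all tested genes that fell in this comparison without the block and 3.66% with it. Of 18 upstream kinases, eIF2B subunits and ER stress transducers, 0 passed in the subset comparison in limma, and Eif2ak2, the RNA-activated kinase PKR, passed only with the block (-1.11, adjusted p = 0.0268). Eif2ak4, which encodes GCN2, and Eif2ak3, which encodes PERK, differed by -0.26 and -0.24 (adjusted p = 0.153 and 0.195, limma). Of 10 amino acid transporters tested, 2 fell. The cationic amino acid carrier Slc7a3 fell by 2.42 (adjusted p = 0.0286) and the neutral amino acid carrier Slc1a4 fell by 1.33 (adjusted p = 0.028, limma). With the block the cystine carrier Slc7a11 fell by 1.89 and Slc7a1 fell by 0.32.

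Of 9 other cytosolic synthetases, Cars, for cysteine, fell by 0.96 (adjusted p = 0.0246, limma), and Lars and Vars joined it with the block. Of 16 mitochondrial synthetases and 17 other one-carbon and proline enzymes, 0 passed without the block; with it Vars2 fell by 0.33 and Mthfd2l rose by 0.47. Of 30 other ER quality control genes 0 passed without the block and the median difference was 0.00, while with it Sel1l fell by 0.60 and Wfs1 fell by 0.39 (limma).

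Set beside the promoter matches counted above, the 12 measured members with a C/EBP-ATF match had a median subset difference of -0.84. The 25 with a window but no match had a median of -0.32. Of the 12, 5 fell without and 9 with the block, and of the 25, 6 and 10. Arrays of the subsets lay apart, CD45RBlow below CD45RBhigh, in 9 of the 12 and in 12 of the 25. Over all tested genes, 1.93% fell without and 3.66% with the block, and 8.13% had arrays apart in that direction. Atf3, Iars and Tars carry the match and did not pass in either fit, and Ddit3, Gpt2 and Mthfd2 fell with no match in their windows. The window covers only the bases next to the start, so these shares describe the list and were not tested.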

How the data were processed

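Transcripts were measured on 8 single-colour Affymetrix whole-transcript arrays, 2 for each of 4 groups read from the sample titles; titles without a number were taken as replicate 1. The deposited values are log2 intensities of 41034 transcript clusters, for which the submitters' processing notes name RMA and Partek; versions and build are not given in the sources used here. Because RMA equalises the arrays' distributions, a shift of most genes together would be hidden. The number of arrays limits the precision.

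Clusters with 1 gene symbol in the platform annotation were kept, the brightest standing for each gene; a gene was tested if it reached the 40th percentile of at least 2 arrays. A mean for each group was fitted over all 8 arrays with limma 3.58.1 in R 4.3.3, with 4 residual and 3.36 prior degrees of freedom, and two-sided p-values were adjusted by Benjamini-Hochberg. The median standard error was 0.102 log2 units for averaged effects and 0.145 within a genotype or subset. The script was tested on simulated data.

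Replicate 2 minus replicate 1 correlated across genes between every pair of groups, at 0.11 to 0.53, each over the pairing limit of 0.1. The samples were paired by number in the pair differences and in the fit with the block. The labels do not state what the number marks, though the sex-linked genes Xist and Kdm5d differed by it. The main fit had no block, so its calls, intervals and adjusted p-values do not use this pairing. The fit with the number as a block is given where it changes a call or a count of genes that passed. The members and lists were chosen with earlier results of these data known. Values on every array are given for members that passed in any comparison with or without the block and for Atf4, Ddit3, Atf3, Atf5, Cebpb, Xbp1, Hspa5 and Atf6. Promoters came from RefSeq (GRCm38.p6). Alternatives were other filters, median centring, array weights, an intensity trend, the mean of clusters, the 2 groups alone and each array left out.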

Additional observations from a re-analysis of the deposited data

Results flagged for a closer look

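Niban1, the stress-induced gene described above among the regulators, had genotype differences of opposite sign in the 2 subsets. CCR2-/- minus wild type was 0.44 and 0.05 in the pairs of CD45RBhigh arrays and -0.14 and -0.28 in the pairs of CD45RBlow arrays, or 0.24 and -0.21 as estimates. The difference between the subsets was -0.45 (95% confidence interval -1.07 to 0.16), and limma's test of that difference did not pass (adjusted p = 1.0, unadjusted p = 0.128).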

How the results depend on the processing

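The replicate block raised the members that fell in CD45RBlow cells to 22 averaged over genotypes (13 without it), 7 in wild type (0) and 10 in CCR2-/- (2); all tested genes that passed went from 409 to 758, 12 to 104 and 45 to 196. Averaged over genotypes, 8 members passed with no filter. In wild type 1 passed with median centring and 3 with array weights. In CCR2-/- the count was 1 with no filter, 4 with median centring, and 0 with array weights or with the 2 groups alone; array weights moved the genes that passed to 116 in wild type and 7 in CCR2-/-. With the 2 groups alone, a fit that takes in fewer samples, 36 genes passed in wild type and 9 in CCR2-/-. The cause of these changes was not tested. Leaving out 1 array gave 1 to 11 members averaged over genotypes, 0 to 0 in wild type and 0 to 2 in CCR2-/-. Branch medians then ran from -0.70 to -0.45 for regulators, -0.88 to -0.63 for enzymes, -0.35 to -0.19 for tRNA genes and -0.20 to -0.09 for ER genes, and kept their sign. Of the 13 members that fell, all 13 passed with the block, 11 with array weights and 8 with no filter. With an array left out the sign turned for Atf3 (-0.62 to 0.09), Sesn2 (-0.36 to 0.21), Ppp1r15a (-0.78 to 0.13), Hspa5 (-0.14 to 0.01) and Sdf2l1 (-0.07 to 0.15), none of which passed. The genotype and interaction counts of 0 members held under all alternatives run. The limits are 2 arrays a group, no label for the replicate number, no unstimulated cells and signals that are not compared between genes.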

Other observations

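Arrays numbered 2 read higher than arrays numbered 1 for most members. The median difference of number 2 from number 1 over the 42 members was 0.25 in wild-type CD45RBhigh, 0.16 in wild-type CD45RBlow, 0.18 in CCR2-/- CD45RBhigh and 0.30 in CCR2-/- CD45RBlow cells, with 33 to 38 members above 0; over all tested genes it was 0.01 to 0.04. In CD45RBlow cells Chac1 differed by 1.98 in wild type and 2.31 in CCR2-/-, Pck2 by 1.01 and 1.76 and Gpt2 by 1.09 and 1.42, while in CD45RBhigh cells the same genes differed by 0.13 to 0.65. Ppp1r15a had the reverse arrangement, at 0.97 and 1.81 in CD45RBhigh and 0.10 and -0.14 in CD45RBlow cells. Besides Xist, the Y-linked Kdm5d also differed by number, at 8.83 to 9.13 on arrays numbered 1 and 7.58 to 7.78 on arrays numbered 2. The part of what the number marks in the members' differences was not tested.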
